A study of Mus musculus with 16 samples.

Results

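The genes described are Hr, Esx1, Pcdh7, Ggct, Dach2, Gm10392 and Gm9732, a set of 7 of the 54532 genes in a count table from mouse colorectal tumours. They were chosen because their transcript levels were far lower in tumours of 1 line, called MSI, than in tumours of another, called CIN. That difference is therefore given below as a description with no test, and the tests concern only measures that the choice did not use. MSI stands for microsatellite instability, the drift of short DNA repeats in cells without mismatch repair, and CIN for chromosomal instability, the repeated gain and loss of chromosomes or their parts.

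The tumours were grown in C57BL/6 mice by placing MC38 cells, a colon carcinoma line of that strain, in the wall of the descending colon. The 8 groups were MSI tumours given MSI free DNA, MSI micronuclei, CIN free DNA or CIN micronuclei, and CIN tumours given the same 4 kinds of DNA, with 2 libraries in each group. All mice received injections of dendritic cells, grown from bone marrow, into the abdomen on days 1, 6 and 12. For 30 minutes beforehand, and with the help of a cationic lipid reagent, these cells had been given 2 µg of DNA. Its source was MSI cells or CIN cells, and its form was free DNA of the cytosol or micronuclei, small bodies apart from the nucleus in which lagging pieces of chromosomes are enclosed by their own membrane. Tumours were collected on day 15, and no mice given untreated dendritic cells were analysed here. The sources name 1 line per tumour type, so the kind of instability and any other difference between the lines cannot be told apart. Cancer cells and host cells are both from mouse, and in whole-tumour RNA fewer cells of a type and less RNA per cell cannot be told apart.

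The 7 genes belong to no single pathway. Hr encodes Hairless, a nuclear protein that represses genes together with the thyroid hormone, vitamin D and ROR nuclear receptors and that hair follicles need to regrow hair; by its sequence it belongs to a family of histone demethylases. Esx1 encodes an X-linked homeobox protein known in the mouse from the placenta and from male germ cells. Dach2 encodes a Dachshund protein, a transcriptional cofactor that works with the Eya proteins in the development of eye and muscle. Pcdh7 encodes protocadherin 7, an adhesion protein of the cell surface. Ggct encodes gamma-glutamyl cyclotransferase, an enzyme of the gamma-glutamyl cycle that splits gamma-glutamyl amino acids and releases 5-oxoproline. Gm10392 and Gm9732 are predicted genes with no assigned role.

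Promoter sequences from RefSeq (build GRCm38.p6) were at hand for 4 of the 7 genes, Esx1, Ggct, Dach2 and Pcdh7. The windows of Esx1, Ggct and the 2 starts of Dach2 are shown so that the starts of genes that differ together between the tumour types can be compared. Each window holds 300 bases, 5′ to 3′ on the strand of the gene, from 250 before to 50 after a transcription start. Capitals mark matches on either strand to the core of 3 promoter motifs. The first is the CCAAT box, which reads ATTGG in reverse. The second is the TATA box, searched as TATAAA and, in reverse, as TTTATA. The third is an E-box whose letters, CACGTG, are the same on both strands. In the windows shown no match overlapped another.
Esx1: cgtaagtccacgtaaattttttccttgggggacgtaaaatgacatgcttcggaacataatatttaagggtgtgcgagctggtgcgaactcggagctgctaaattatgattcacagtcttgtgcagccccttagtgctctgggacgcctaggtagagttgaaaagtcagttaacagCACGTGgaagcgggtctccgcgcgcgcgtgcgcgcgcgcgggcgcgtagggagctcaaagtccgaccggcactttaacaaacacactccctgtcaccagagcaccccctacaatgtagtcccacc
Ggct: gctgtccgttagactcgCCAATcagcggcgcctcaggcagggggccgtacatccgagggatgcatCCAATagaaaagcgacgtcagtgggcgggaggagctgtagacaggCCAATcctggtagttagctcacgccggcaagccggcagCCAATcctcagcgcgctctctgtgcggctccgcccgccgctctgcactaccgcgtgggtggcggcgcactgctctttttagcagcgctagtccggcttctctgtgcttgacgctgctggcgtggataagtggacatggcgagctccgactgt
Dach2 upstream start: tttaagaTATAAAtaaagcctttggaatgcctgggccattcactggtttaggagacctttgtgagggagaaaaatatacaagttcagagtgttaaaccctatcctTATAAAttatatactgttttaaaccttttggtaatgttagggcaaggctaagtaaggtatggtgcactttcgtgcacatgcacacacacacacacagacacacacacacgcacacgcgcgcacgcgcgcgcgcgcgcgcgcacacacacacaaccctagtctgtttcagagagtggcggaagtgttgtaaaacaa
Dach2 downstream start: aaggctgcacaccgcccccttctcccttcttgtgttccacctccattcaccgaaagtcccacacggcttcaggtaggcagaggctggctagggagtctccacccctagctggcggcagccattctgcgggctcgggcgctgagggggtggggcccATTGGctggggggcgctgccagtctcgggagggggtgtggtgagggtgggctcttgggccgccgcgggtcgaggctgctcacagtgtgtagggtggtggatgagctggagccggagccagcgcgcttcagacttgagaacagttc
The Esx1 window (chrX:137120277-137120576, minus strand) lay inside the gene's span in the count table and held 1 CACGTG, a motif found in 7.15% of 32851 promoters of 27025 genes. It had 24 CG dinucleotides, more than 80.0% of these promoters, whose median was 7. The Ggct window (chr6:54992818-54993117, minus strand) held 4 CCAAT motifs and 28 CG dinucleotides. CCAAT was present in 37.4% of promoters, but 4 or more were present in only 1.06%. The upstream Dach2 window (chrX:113297260-113297559, plus strand) held 2 TATAAA motifs, which 13.6% of promoters have at least once, and 15 CG dinucleotides. The downstream one (chrX:113298006-113298305, plus strand) held 1 CCAAT in reverse and 16 CG dinucleotides. The Pcdh7 window held none of the 3 motifs and 11 CG dinucleotides. No motif of the 3 was thus present in all these windows.

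All 16 libraries were of similar depth, at 11561955 to 17937501 counts. Marker transcripts of colon epithelium, such as Epcam and Muc2, were present in every library but varied widely, with sums over 12 markers of 418 to 8956 CPM (counts scaled to a fixed library size) in MSI and 100 to 6036 CPM in CIN tumours. Skeletal muscle markers stood high in 5 libraries: MSI tumour CIN micronuclei 1, and in CIN tumours MSI micronuclei 1 and 2, MSI free 2 and CIN free 2. The sum of the 12 muscle markers was 824 CPM in the MSI tumour library and 152 to 320 CPM in the 4 CIN tumour libraries, against 9.17 to 24.9 CPM in the other CIN tumour libraries. In MSI tumours the libraries also stood apart by their replicate number: the colon sum was 5704 to 8956 CPM in the 4 labelled 2 and 418 to 2831 CPM in the 4 labelled 1, and the sum of 10 smooth muscle markers was 2286 to 5783 and 496 to 1380 CPM. Without the 5 libraries rich in muscle transcripts an additive model called 134 of 17080 genes (0.785%) between the tumour types, so many calls were lost there. The differences of the 7 genes, and the calls of other named genes, are given below with that fit.

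Levels are CPM scaled by the TMM method, and all 7 genes passed the filter on low counts. For each of the 7, every MSI tumour library lay below every CIN tumour library, a pattern shown by 1.88% of the 18777 genes tested. All 7 were also among the 3.48% of genes called lower in MSI tumours (654 genes, edgeR with Benjamini-Hochberg adjustment). Because the genes were picked on this contrast, nothing is read from these counts. Their median log2 fold change, MSI over CIN tumours, was -3.54, beside 0.06 over all genes tested.

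Hr, on chromosome 14 (chr14:70552212-70573548, plus strand, GRCm38), gave the most counts of the set. Its lowest, median and highest levels were 29.2, 35.9 and 47.1 CPM in MSI tumours, against 114, 168 and 212 CPM in CIN tumours. The lowest CIN library thus stood 2.43 times above the highest MSI library. The means were 36.4 ± 5.42 CPM in MSI and 159.6 ± 30.8 CPM in CIN tumours (SD, n = 8 each), a log2 fold change of -2.12 ± 0.09 (SE). The Hairless transcript was therefore reduced but well measured in MSI tumours, with 4337 counts there and 18544 in CIN tumours.

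Esx1, on the X chromosome (chrX:137115397-137122083, minus strand), showed the largest ratio between the tumour types. Levels ran from 0.133 over a median of 0.926 to 1.94 CPM in MSI tumours, against 9.17, 13.5 and 17.1 CPM in CIN tumours. The means were 0.991 ± 0.666 CPM in MSI and 13.7 ± 2.59 CPM in CIN tumours (SD, n = 8 each), so that the CIN mean was 13.8 times the MSI mean and the log2 fold change was -3.88 ± 0.45 (SE). Only 119 counts of this placental and germ cell homeobox gene were found over the 8 MSI libraries, beside 1604 over the 8 CIN libraries. Among all genes tested its fall ranked 21.

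Dach2, also on the X chromosome (chrX:113297510-113836386, plus strand), was low in both tumour types. Its lowest, median and highest values were 0, 0.463 and 0.776 CPM in MSI tumours, against 2.76, 5.30 and 7.93 CPM in CIN tumours. The library at 0, MSI tumour CIN free 2, allows a level of up to 0.200 CPM (3 counts, covering counting error only). Means were 0.428 ± 0.277 CPM in MSI and 5.13 ± 1.95 CPM in CIN tumours (SD, n = 8 each; log2 fold change -3.54 ± 0.52 SE). The CIN values were spread 2.88-fold from lowest to highest, and their coefficient of variation of 38.1% was the highest of the set.

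Pcdh7, on chromosome 5 (chr5:57717967-58133230, plus strand), was the steadiest. It had 20.8, 23.3 and 30.1 CPM as the lowest, median and highest levels in MSI tumours, against 53.3, 57.7 and 65.2 CPM in CIN tumours. The groups did not overlap, but the gap was the smallest of the set, with means of 24.2 ± 3.19 CPM in MSI and 59.7 ± 4.75 CPM in CIN tumours (SD, n = 8 each; log2 fold change -1.31 ± 0.09 SE). Its coefficient of variation among CIN tumours was 7.96%, the lowest of the set.

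Ggct, on chromosome 6 (chr6:54982580-54992950, minus strand), ran from 5.95 over a median of 7.04 to 10.7 CPM in MSI tumours. In CIN tumours the same values were 24.7, 36.4 and 47.1 CPM. The enzyme's transcript averaged 8.0 ± 1.78 CPM in MSI and 36.3 ± 6.49 CPM in CIN tumours (SD, n = 8 each), a log2 fold change of -2.18 ± 0.16 (SE). No library of either type came near the other's range: the lowest CIN library stood 2.32 times above the highest MSI library.

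Gm10392, on chromosome 11 (chr11:77516660-77519198, minus strand), reached from 0 over a median of 0.362 to 1.23 CPM in MSI tumours. Its values in CIN tumours were close together, at 5.21, 5.83 and 7.65 CPM. The means were 0.509 ± 0.416 CPM in MSI and 6.08 ± 0.832 CPM in CIN tumours (SD, n = 8 each; log2 fold change -3.78 ± 0.48 SE). The MSI library at 0, MSI tumour MSI free 2, allows up to 0.201 CPM.

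Gm9732, on chromosome 14 (chr14:43275036-43306011, plus strand), had 0, 0.784 and 1.40 CPM as the lowest, median and highest levels in MSI tumours, against 3.88, 8.02 and 12.6 CPM in CIN tumours. Means were 0.719 ± 0.410 CPM in MSI and 8.25 ± 3.03 CPM in CIN tumours (SD, n = 8 each; log2 fold change -3.57 ± 0.47 SE). The library at 0, MSI tumour CIN micronuclei 2, allows up to 0.191 CPM. The CIN values were spread 3.25-fold, the widest of the set. The deposited table calls the gene protein coding, while RefSeq lists it as a long noncoding RNA.

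**Figure D1:**
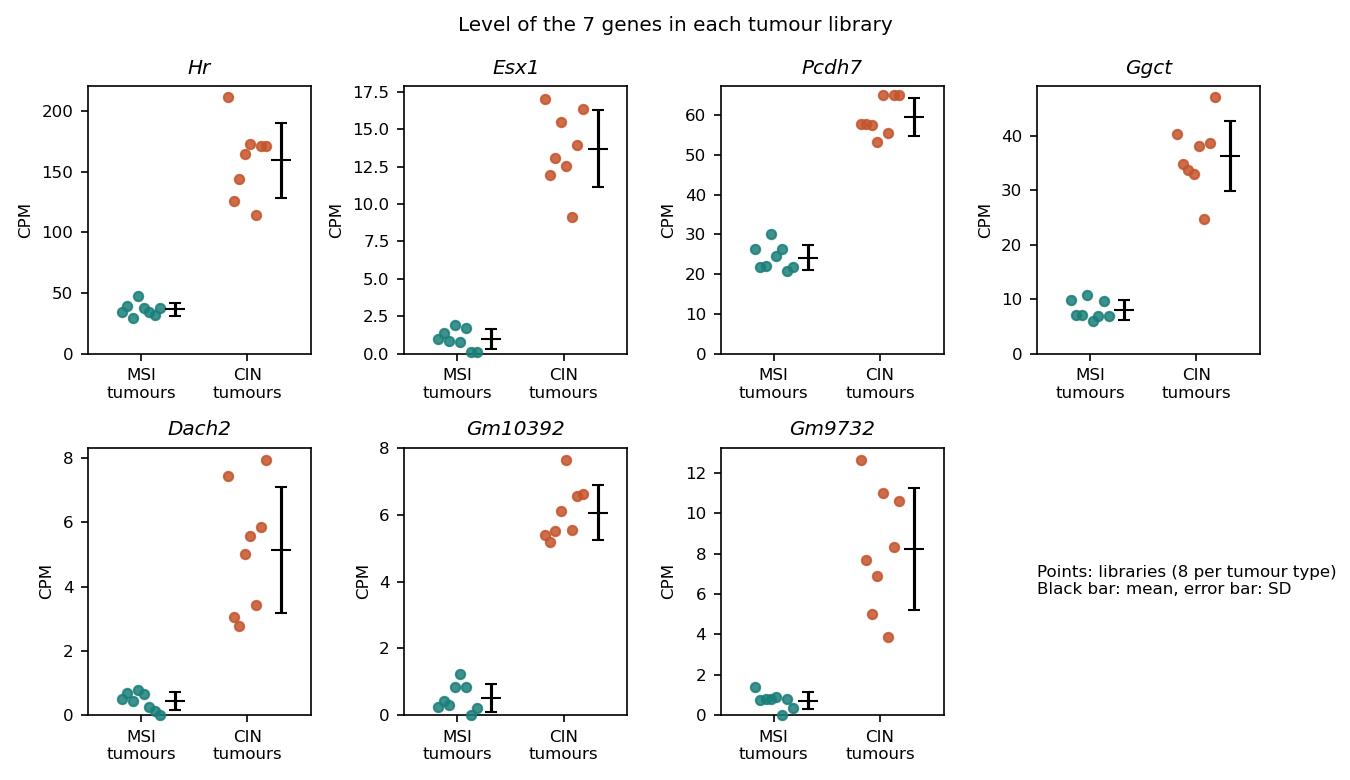
Level of each gene in CPM (vertical axis, linear from 0) in 8 MSI tumour and 8 CIN tumour libraries; points are libraries, the black bar is the mean and the error bar the SD. In every panel all MSI points lie below all CIN points, with the smallest ratio of means for Pcdh7 and the largest for Esx1.

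Compared per length of transcript, on the deposited FPKM scale (fragments scaled by transcript length and library size), the order of levels differed between the tumour types. In MSI tumours it ran Hr (5.28 FPKM), Pcdh7 (2.30), Ggct (1.04), Esx1 (0.494), Gm10392 (0.294), Gm9732 (0.269) and Dach2 (0.0424). In CIN tumours it ran Hr (22.4 FPKM), Esx1 (6.73), Pcdh7 (5.49), Ggct (4.57), Gm10392 (3.42), Gm9732 (3.01) and Dach2 (0.504). In CIN tumours the range of Hr (16.5 to 28.8 FPKM) lay above and that of Dach2 (0.279 to 0.772 FPKM) below those of all the others. The 5 genes between them overlapped with their neighbours in that order. Esx1 thus stood below Pcdh7 and Ggct in MSI tumours and beside them in CIN tumours. The lengths behind these values exceed the longest annotated transcript for all of the genes but Gm10392, by 1.96 times for Ggct, 1.91 times for Dach2, 1.67 times for Gm9732 and 1.17 to 1.23 times for Esx1, Pcdh7 and Hr. Scaled to the longest transcript instead, Gm9732 stood above Gm10392 in both tumour types (0.449 and 0.294 FPKM in MSI tumours, 5.03 and 3.42 FPKM in CIN tumours), and in CIN tumours Ggct (8.93 FPKM) stood above Esx1 (7.89 FPKM) and Pcdh7 (6.63 FPKM).

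Related genes of each pathway or family are set beside the 7 in the tumour contrast, in which 5.8% of all genes were called in either direction. For the gamma-glutamyl cycle and glutathione metabolism, 17 genes other than Ggct were tested, of which 0 were called higher, 1 lower and 16 did not pass. The median log2 fold change of the 17 was 0.27. The gene called lower was Anpep, an aminopeptidase of the cell surface, at 66.5 ± 13.9 CPM in MSI and 96.1 ± 12.6 CPM in CIN tumours (SD, n = 8 each; log2 fold change -0.54, edgeR adjusted p = 0.0371). That call was lost in 13 of 25 alternative settings, of which 12 left out a single library and 1 left out the 5 libraries rich in muscle transcripts. Enzymes with a reaction close to that of Ggct did not pass: Ggact had 22.8 CPM in MSI and 15.8 CPM in CIN tumours (adjusted p = 0.243), Chac1, a glutathione-splitting enzyme of the stress response, 60.0 and 39.9 CPM (adjusted p = 0.308), and Chac2 7.92 and 7.81 CPM (adjusted p = 0.973). Gclc, the catalytic subunit of the first enzyme of glutathione synthesis, had 68.9 CPM in MSI and 57.1 CPM in CIN tumours (adjusted p = 0.281).

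Among the other non-clustered protocadherins, 8 of 11 were tested and none was called, with 0 higher and 0 lower and a median log2 fold change of 0.45. Pcdh1, a close relative of Pcdh7, had 76.6 CPM in MSI and 77.5 CPM in CIN tumours (log2 fold change -0.02, edgeR adjusted p = 0.974). Pcdh9 was 3.05 CPM in MSI and 1.18 CPM in CIN tumours and fell just short of the threshold (log2 fold change 1.38, adjusted p = 0.0516). Pcdh10 was too low to test, at 0.364 and 0.182 CPM in MSI and CIN tumours.

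In the list of Dach and Eya genes and their partners, 7 of 10 genes other than Dach2 were tested, again with 0 higher and 0 lower, and their median log2 fold change was 0.55. Dach1, the paralogue of Dach2, had 2.66 CPM in MSI and 1.52 CPM in CIN tumours (log2 fold change 1.11, edgeR adjusted p = 0.233). The Eya phosphatases, which also act as transcriptional cofactors, gave log2 fold changes of 0.82 (Eya1), 0.55 (Eya2), -0.16 (Eya3) and 0.59 (Eya4). None of these passed the test.

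Of the family and partners of Hairless, 15 of 16 other genes were tested, with 0 higher and 0 lower and a median log2 fold change of -0.01. Kdm3a, a histone H3 lysine demethylase of the same family, came nearest, at 90.5 ± 15.5 CPM in MSI and 120.4 ± 20.9 CPM in CIN tumours (SD, n = 8 each; log2 fold change -0.41, edgeR adjusted p = 0.0978). Its relatives Kdm3b and Jmjd1c had log2 fold changes of -0.13 and 0.11. Among the nuclear receptors in this list, Vdr gave 0.56, Rxra 0.10, Thra -0.14 and Rora 0.05 on the same scale.

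Of 12 other homeobox genes listed from the X chromosome 1 was tested, and it was called higher. This was Rhox5, a homeobox gene of the reproductive tract, at 4.70 ± 1.70 CPM in MSI and 0.735 ± 0.193 CPM in CIN tumours (SD, n = 8 each), with a log2 fold change of 2.67 ± 0.28 (SE) and an edgeR adjusted p of 5.72e-04. Its call held in all 25 alternative settings. Esx1 and Rhox5 therefore moved in opposite directions between the same libraries.

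**Figure D2:**
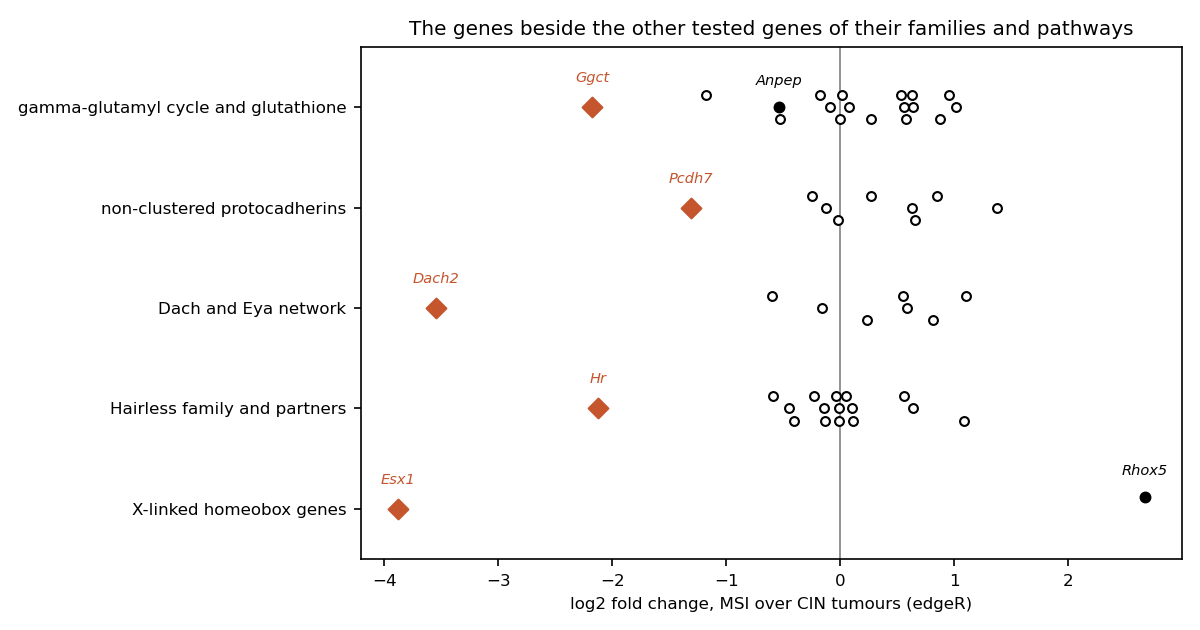
Log2 fold change, MSI over CIN tumours, of 5 of the genes (diamonds) and of the tested genes of their families and pathways (circles, filled where edgeR's adjusted p is below 0.05). Anpep, lower, and Rhox5, higher, are the 2 filled circles; vertical offsets within a row only separate the points.

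The genomic surroundings of the 7 genes differed. Counting genes that start within 500 kb of a gene's span, 4 of 22 tested neighbours of Hr were called lower in MSI tumours and 3 of 18 of Gm10392. None of the 7 tested neighbours of Esx1, 3 of Pcdh7, 11 of Ggct, 1 of Dach2 and 2 of Gm9732 was called, and no neighbour of any of the 7 genes was called higher. The share of all genes called lower was 4.92% on the X chromosome, 4.50% on chromosome 6, 3.80% on chromosome 11, 2.89% on chromosome 5 and 2.20% on chromosome 14.

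The genes directly beside Hr were not among those called: Reep4 had 72.2 CPM in MSI and 67.5 CPM in CIN tumours (edgeR adjusted p = 0.476) and Nudt18 14.2 and 15.9 CPM (adjusted p = 0.504). The 4 called neighbours lay farther off. Egr3, a zinc finger transcription factor gene starting 475 kb upstream, had 9.35 ± 2.18 CPM in MSI and 22.3 ± 4.46 CPM in CIN tumours (SD, n = 8 each; log2 fold change -1.25, adjusted p = 6.86e-04), and its call held in all 25 alternative settings. The growth factor gene Fgf17, starting 90.1 kb downstream, had 0.115 ± 0.116 CPM in MSI and 0.545 ± 0.228 CPM in CIN tumours (log2 fold change -2.85, adjusted p = 0.0425). Gfra2, a receptor for glial cell line-derived factors, had 114 ± 35.0 and 206 ± 29.5 CPM in MSI and CIN tumours (log2 fold change -0.86, adjusted p = 0.0289). The metal ion transporter gene Slc39a14 had 75.7 ± 15.2 and 123 ± 17.9 CPM in MSI and CIN tumours (log2 fold change -0.70, adjusted p = 0.0186). Leaving out single libraries ended the call of Fgf17 in 15 of 16 cases, of Gfra2 in 10 and of Slc39a14 in 4. Without the 5 libraries rich in muscle transcripts the edgeR adjusted p was 0.233 for Gfra2 and 0.123 for Slc39a14, and Fgf17 was too low to test.

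Gm10392 lies inside the span of Abhd15, which is read from the opposite strand. Of its 1732-base transcript 886 bases, or 51.2%, are the exact complement of an Abhd15 transcript, and the sources used here do not say whether the counting used strand. Whether reads of the 2 genes were told apart over that stretch is therefore not known. Abhd15, which encodes a hydrolase fold protein of fat metabolism, had 0.840 ± 0.533 CPM in MSI and 5.23 ± 1.60 CPM in CIN tumours (SD, n = 8 each), with ranges of 0 to 1.53 and 2.96 to 7.49 CPM that did not overlap. Its log2 fold change was -2.72 ± 0.50 (SE), with an edgeR adjusted p of 0.0115. Trp53i13, 0.68 kb away, had 16.2 ± 3.86 CPM in MSI and 29.2 ± 3.99 CPM in CIN tumours (log2 fold change -0.85, adjusted p = 0.0134). Git1, whose product acts on small GTPases of the ARF family, had 126 ± 12.6 CPM in MSI and 170.4 ± 15.8 CPM in CIN tumours (log2 fold change -0.43, adjusted p = 0.0155). On the other side, Taok1 did not pass, at 104 CPM in MSI and 136 CPM in CIN tumours (adjusted p = 0.126). The call of Trp53i13 was lost without MSI tumour MSI micronuclei 2, that of Git1 without any of 4 single libraries, and those of Abhd15, Trp53i13 and Git1 in the fit without the 5 libraries rich in muscle transcripts.

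**Figure D3:**
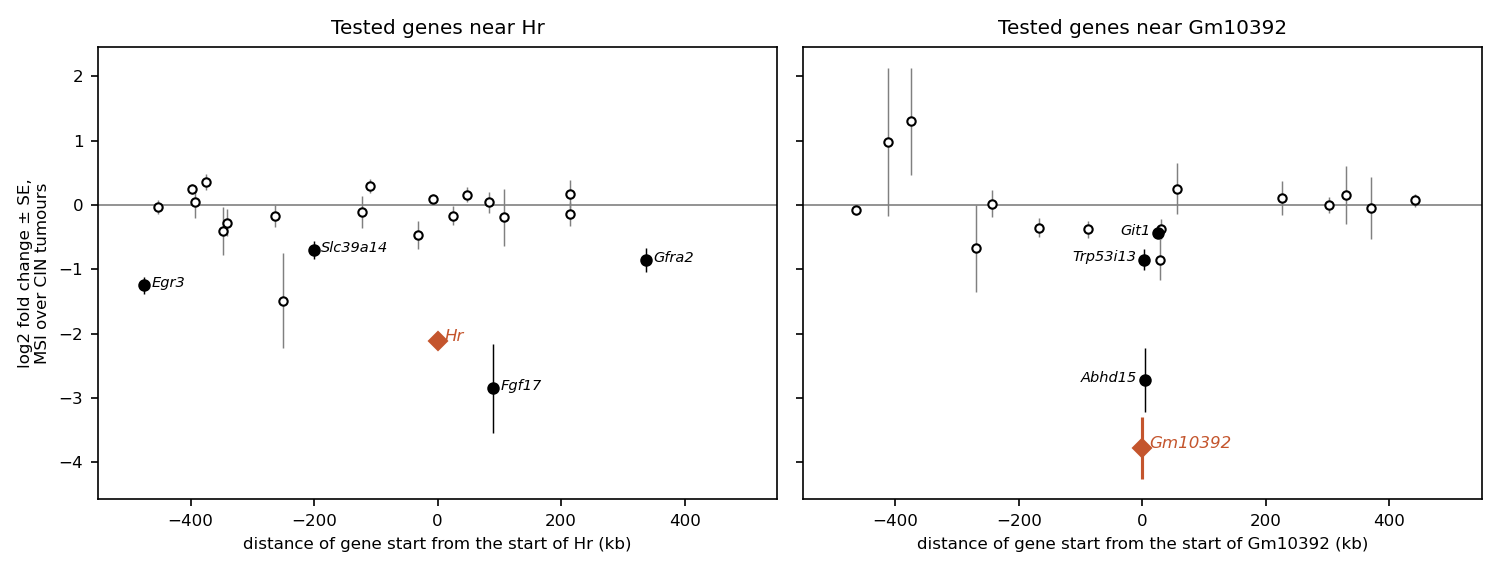
Log2 fold change ± SE, MSI over CIN tumours, of the tested genes that start within 500 kb of Hr and Gm10392, against the distance of their start from that of Hr or Gm10392 in kb, positive in the direction of transcription (diamond: Hr or Gm10392; filled circles: edgeR adjusted p below 0.05). The called neighbours of Gm10392 cluster at its own position, while those of Hr stand 90.1 kb or more away.

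Nearest to Ggct, Nod1 and Gars had log2 fold changes of -0.10 and -0.27, and nearest to Esx1, Fam199x and Mum1l1 had -0.28 and -0.35, none past the test. Beside Dach2, the Rab escort protein gene Chm had 33.1 CPM in MSI and 45.6 CPM in CIN tumours (edgeR adjusted p = 0.118), and on the other side Klhl4 had 1.48 CPM in MSI and 0.748 CPM in CIN tumours (adjusted p = 0.145). Nearest to Pcdh7, the pseudogenes Gm8121 and Cbfa2t2-ps1 had log2 fold changes of -0.18 and -0.36, and nearest to Gm9732, Cdv3-ps and Gm7324 had -0.68 and -0.42, again none past the test. Pcdh7 overlaps the antisense transcript 4932441J04Rik, at 0.400 CPM in MSI and 1.10 CPM in CIN tumours (adjusted p = 0.0513), and holds the transcript Gm42635 within its span, at 0.219 and 0.653 CPM (adjusted p = 0.115). The counts of both are small beside those of Pcdh7. However, 2235 bases, or 25.4% of a Pcdh7 transcript, are the exact complement of 4932441J04Rik. Whether reads of these 2 were told apart over that stretch is not known.

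Gm9732 is one of many similar genes on chromosome 14. Transcripts of 41 other genes, all on that chromosome, matched it in the same direction at 90% identity or more over at least 200 bases, and 8 of them at 95% or more over at least 1000 bases. A further 36 genes of the chromosome matched its complement at 92.8 to 99.4% identity over 319 to 335 bases, which matters if the counting ignored strand; none of them was tested, and together they had 0.441 CPM in MSI and 0.332 CPM in CIN tumours. Reads that fit several copies may be split or lost in counting, so the level of Gm9732 is uncertain by an amount that was not measured. The 8 close copies together had a mean of 0.557 CPM in MSI and 1.23 CPM in CIN tumours, less than Gm9732 alone in either type. Of the 41 relatives in the same direction 4 were tested, with 1 lower, 1 higher and 2 not called.

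The relatives did not move as a block. 1700024B05Rik, which matches 1130 bases at 92.1% identity, had 0 counts over all MSI libraries and 93 over all CIN libraries, where it averaged 0.818 ± 0.551 CPM (SD, n = 8, range 0.159 to 1.95 CPM; edgeR adjusted p = 0.0152). With 3 counts over the 8 MSI libraries as the floor, it was at least 32.4-fold lower in MSI tumours. Without the 5 libraries rich in muscle transcripts, 1700024B05Rik was too low to test. AC160336.1, which matches 1134 bases at 91.9% identity, had 0.868 ± 0.433 CPM in MSI and 0.240 ± 0.174 CPM in CIN tumours (log2 fold change 2.23 ± 0.54 SE, adjusted p = 0.0378), a call that 14 of 16 single left-out libraries ended, as did leaving out the 5 libraries rich in muscle transcripts (adjusted p = 0.393). Gm8011, one of the close copies, had 0.412 CPM in MSI and 0.993 CPM in CIN tumours (adjusted p = 0.156).

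Markers of cell types in which these genes are known to act were measured beside them. Of the keratinocyte and hair follicle list, in which Hr is active, 6 of 12 genes were tested and 1 was called, and the summed level was 8.79 to 29.3 CPM in MSI and 47.3 to 118 CPM in CIN tumours. Most of that sum was Krt14, at 12.7 ± 8.34 CPM in MSI and 71.4 ± 22.2 CPM in CIN tumours (SD, n = 8 each; log2 fold change -2.75, edgeR adjusted p = 4.10e-04). Without the 5 libraries rich in muscle transcripts Krt14 was not called (log2 fold change -2.32, edgeR adjusted p = 0.111). Krt5, its usual partner, was at 0.161 and 0.438 CPM, the epidermal regulator Trp63 at 0.0240 and 0.231 CPM, and the hair keratin gene Krt71 at 0 in all libraries.

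For Esx1, the placental list summed to 4.98 to 16.5 CPM in MSI and 4.60 to 11.6 CPM in CIN tumours, 5 of its 10 genes were tested and 0 were called, and the trophoblast genes Gcm1, Synb, Tpbpa and Prl3d1 were at 0 throughout. The germ cell list summed to 1.59 to 3.69 CPM in MSI and 0.530 to 2.46 CPM in CIN tumours, with 3 of 10 genes tested, 0 called, and Sycp1 and Tnp1 at 0 throughout. Both sums overlapped between the tumour types. The list of enteric neurons and glia (neurons widely express protocadherins) summed to 202 to 345 CPM in MSI and 453 to 687 CPM in CIN tumours. Of its 12 genes only the tubulin gene Tubb3 was called, at 222 ± 73.0 CPM in MSI and 560.0 ± 82.0 CPM in CIN tumours (log2 fold change -1.35, edgeR adjusted p = 0.00307). Most of the sum was thus Tubb3, while the median log2 fold change of the list was 1.04. Fibroblast markers had 2 of 10 genes lower, Col1a1 and Pdgfrb, and endothelial markers 5 of 10 higher. Without the 5 libraries rich in muscle transcripts Tubb3 (edgeR adjusted p = 0.0662), Pdgfrb (adjusted p = 0.122) and all 10 endothelial markers were not called, and Col1a1 was (adjusted p = 0.00367). The part of any of these in the levels of the 7 genes was not tested.

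Within CIN tumours some of the genes were high in the libraries with muscle transcripts. Hr had 171 to 212 CPM in those 4 libraries, against 114 to 165 CPM in the other 4. For Ggct the ranges were 38.1 to 47.1 and 24.7 to 34.8 CPM, for Dach2 5.58 to 7.93 and 2.76 to 5.03 CPM, and for Gm9732 8.34 to 12.6 and 3.88 to 7.69 CPM. These 4 genes thus did not overlap between the 2 sets of libraries, while Esx1, Pcdh7 and Gm10392 did. Pcdh7 overlapped only narrowly, at 57.73 to 65.21 and 53.28 to 57.75 CPM. The ranges were 12.6 to 17.1 and 9.17 to 15.5 CPM for Esx1, and 5.39 to 7.65 and 5.21 to 6.12 CPM for Gm10392. Of all genes tested, 13% were higher in each of the 4 libraries than in each of the others. The colon epithelium sum also differed, at 100 to 2876 CPM in the 4 libraries and 2184 to 6036 CPM in the others. In MSI tumours the library with the most muscle transcripts had 38.9 CPM of Hr, 7.09 CPM of Ggct, 0.684 CPM of Dach2 and 0.746 CPM of Gm9732, all within the range of the other 7 MSI libraries. The part of muscle in these levels was not tested.

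Without the 5 libraries the CIN mean was 3.81 times the MSI mean for Hr, 13.3 times for Esx1 and 2.28 times for Pcdh7. It was 3.88 times for Ggct, 9.12 times for Dach2, 10.8 times for Gm10392 and 8.19 times for Gm9732. With all libraries the same ratios were 4.39, 13.8, 2.47, 4.54, 12.0, 11.9 and 11.5, in that order of genes. The largest change was that of Gm9732. The genes were picked on this difference with the remaining libraries included. For each gene every MSI library lay below every CIN library, so leaving libraries out could not reverse the direction. The ratios therefore describe the size of the difference and do not test it.

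After subtraction of the mean of each tumour type, the 7 genes varied loosely together. Of their 21 pairs, 18 had a positive Pearson correlation of log2 CPM over the 16 libraries, with a median of 0.48 and a range from -0.24 to 0.76. These are descriptions, since the values share libraries, depth and tissue content. The same measure over pairs of all genes is not given here, so the correlations are not read as particular to the 7. On the same measure Dach2 was closest to Map3k4 (0.94) and Cenpf (0.94), Gm9732 to Cntnap4 (0.91) and Fndc4 (0.89), and Esx1 to Xndc1 (0.89) and Sfxn4 (0.87). Hr was closest to Ptprm (0.85) and Brox (0.84), Pcdh7 to Zfp780b (0.84) and Ibtk (0.81), Ggct to Parva (0.82) and Cops4 (0.79), and Gm10392 to Cabp1 (0.74) and Xndc1 (0.74).

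Without that subtraction, so that the difference between the tumour types is part of the likeness, other genes came first. Sh3tc2, at 1.68 CPM in MSI and 22.3 CPM in CIN tumours, was among the nearest 2 of Hr (0.99), Pcdh7 (0.97) and Ggct (0.97). Ltbp2, a matrix protein gene, at 78.6 CPM in MSI and 487 CPM in CIN tumours, was among those of Esx1 (0.97) and Dach2 (0.98). The clustered protocadherin gene Pcdhb16, at 1.32 CPM in MSI and 8.28 CPM in CIN tumours, was among those of Pcdh7 (0.98) and Gm10392 (0.96). The others were Tsc22d1 for Hr, Igsf8 for Esx1, Pld5 for Ggct, Mbtps1 for Dach2, Pcdhga6 for Gm10392, and Bhlhe22 and Mfhas1 for Gm9732.

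The DNA given to the dendritic cells was not part of how the genes were chosen, so its effects could be tested. The question was whether the 7 genes differed by the source of the DNA (MSI or CIN) or by its form (free or micronuclei), over all tumours, within each tumour type, and between tumour types. None of the 7 was called in any of these 8 comparisons, and the share of all 18777 genes called was 0% in each (edgeR with Benjamini-Hochberg adjustment). At an unadjusted p under 0.05 edgeR gave 126 to 315 genes per comparison. DESeq2 gave 170 to 436 at that level and called 1 gene for the source in CIN tumours, 2 for the interaction of tumour and source, and 0 elsewhere. Both ranges lie below a share of 0.05 of the 18777 genes, the share expected where no gene differs. The tests thus leaned towards too few small p-values, and a missing call is weak evidence that a gene did not differ. RNA of 3 biological replicates was combined before sequencing, and whether every library is a separate pool is not stated, so the spread behind these p-values may be technical in part.

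Hr came nearest to a call, in the interaction of tumour type and source. In MSI tumours it had 29.2, 31.9, 34.1 and 37.9 CPM with MSI DNA, against 47.1, 37.2, 38.9 and 34.5 CPM with CIN DNA. In CIN tumours it had 144, 171, 212 and 173 CPM with MSI DNA, against 165, 172, 126 and 114 CPM with CIN DNA. Values with MSI DNA thus leaned low in MSI tumours and high in CIN tumours, and the sets overlapped in both. The log2 fold change, MSI over CIN DNA, was -0.25 ± 0.12 (SE) in MSI tumours (means 33.3 ± 3.69 and 39.4 ± 5.44 CPM, SD, n = 4 each) and 0.29 ± 0.12 in CIN tumours (means 175 ± 27.8 and 144 ± 28.4 CPM, SD, n = 4 each). The halved difference of these effects was -0.27 ± 0.08 (SE), with an edgeR adjusted p of 1.00, so it did not pass the test. Hr was below an unadjusted threshold of 0.05 in edgeR for this interaction and for the source in CIN tumours, and no other gene of the 7 was in any of the 8 comparisons. Of the 4 CIN tumour libraries rich in muscle transcripts 3 had received MSI DNA, and without the 5 such libraries the source effect of Hr was -0.23 ± 0.16 (SE) in MSI tumours and -0.17 ± 0.28 in CIN tumours, with an interaction of -0.03 ± 0.16 (edgeR adjusted p = 1.00 for each). The lean in opposite directions was thus not present without these libraries. In that fit MSI DNA in CIN tumours rests on 1 library, which is assumed to vary like the others.

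In CIN tumours the source effect was above 0 for 7 of 7 genes, from 0.08 (Pcdh7) to 0.32 (Gm9732) on the log2 scale, with a median of 0.13 beside -0.0047 over all genes. Without the 5 libraries rich in muscle transcripts it was above 0 for 2 of the 7, Pcdh7 (0.14) and Ggct (0.06). With colon and muscle scores as covariates, the same effect was -0.31 for Dach2 and -0.31 for Gm9732 and stayed above 0 for the other 5, from 0.01 (Ggct) to 0.22 (Gm10392). None of these values passed the test either way. All 7 genes were measured in the same libraries, so 7 of 7 does not count separate observations.

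The lowest group mean in CIN tumours was that of CIN micronuclei for 7 of 7 genes, a pattern shown by 35% of all genes tested. Hr had 126 and 114 CPM there, below 144 CPM, the lowest of the other 6 CIN tumour libraries. Esx1 had 11.9 and 9.17 CPM, below 12.6 CPM, the lowest of the others. Both libraries of this group lay below all others in these 2 genes, as in 4.64% of all genes tested. For the other 5 genes at least 1 library of the group lay within the range of the other CIN tumour libraries. The lowest value in CIN tumours was nevertheless in this group for Ggct (24.7 CPM), Gm9732 (3.88 CPM) and Gm10392 (5.21 CPM). Both libraries of the group were low in muscle transcripts, and the genes share these libraries, so the 7 are not separate observations.

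**Figure D4:**
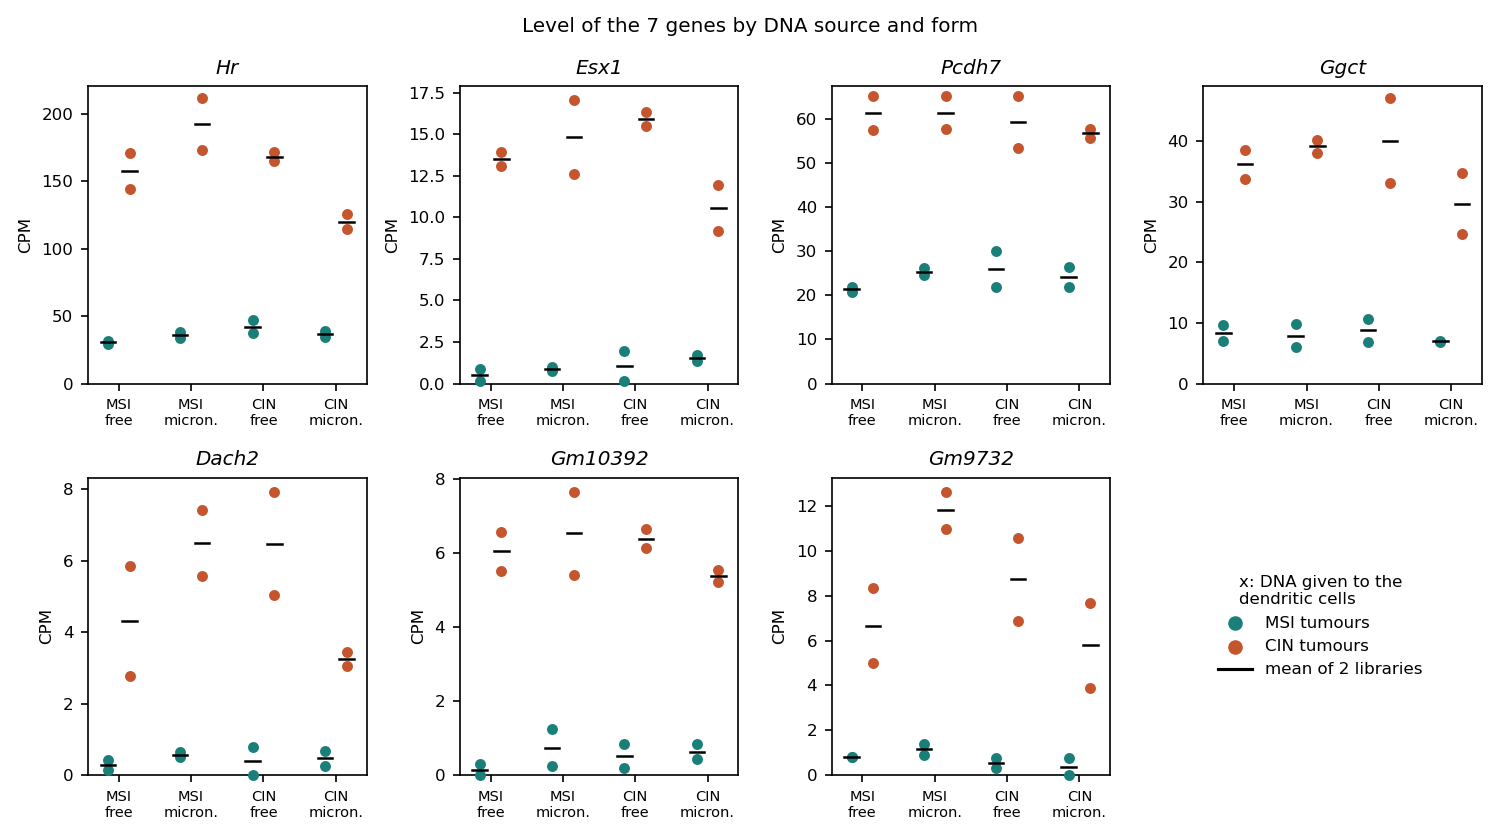
Level of each gene in CPM (vertical axis, linear from 0) by the source and form of the DNA, for MSI tumours (green) and CIN tumours (orange); points are libraries and black lines the mean of 2. The tumour types, on whose difference the genes were picked, stay apart for every kind of DNA. Within CIN tumours the mean for CIN micronuclei is the lowest in each panel.

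Within MSI tumours the source effects ran from -0.93 ± 0.63 for Esx1 to 1.05 ± 0.67 for Gm9732 (log2 fold change ± SE, MSI over CIN DNA). Gm9732 had 0.793, 0.804, 1.40 and 0.906 CPM with MSI DNA, against 0.776, 0.333, 0.746 and 0 CPM with CIN DNA. It was the only case among these effects of a gene whose groups did not overlap, which 1.07% of all genes tested show in this comparison, and by a narrow margin (0.793 against 0.776 CPM), in a range of few counts per library (edgeR adjusted p = 1.00). In CIN tumours the same gene overlapped, at 4.99 to 12.6 CPM with MSI DNA and 3.88 to 10.6 CPM with CIN DNA.

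Effects of the form of the DNA, free over micronuclei, were small in CIN tumours, at -0.11 to 0.23 on the log2 scale. In MSI tumours they ran from -1.31 ± 0.71 (SE) for Gm10392 to 0.20 ± 0.22 for Ggct. Gm10392 had 0.288, 0, 0.840 and 0.200 CPM with free DNA, against 0.247, 1.23, 0.435 and 0.829 CPM with micronuclei, in MSI tumours. These groups overlapped (edgeR adjusted p = 1.00). How tightly an effect could be bounded followed the level of the gene: the SE within a tumour type was 0.12 for Hr and 0.13 for Pcdh7, but 0.55 to 0.76 for Esx1, Dach2, Gm10392 and Gm9732. For these 4 genes the missing calls therefore leave wide intervals, above all in MSI tumours, where their counts were few.

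**Figure D5:**
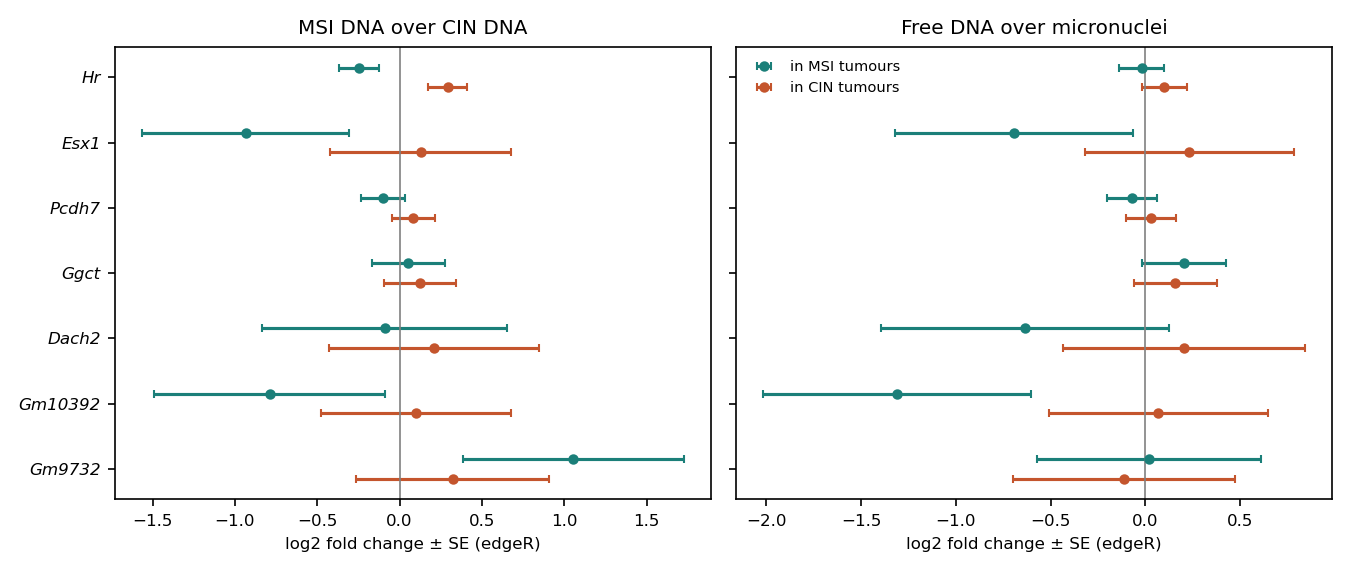
Log2 fold change ± SE (edgeR) of each gene for MSI over CIN DNA (left) and free DNA over micronuclei (right), within MSI tumours (green) and within CIN tumours (orange). None passes the test; in the left panel Hr stands on opposite sides of 0, at -0.25 in MSI and 0.29 in CIN tumours.

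The difference between the tumour types, on which the genes were picked in these same libraries, is only described here for each kind of DNA. For Esx1 the CIN mean was 27.1 times the MSI mean with MSI free DNA, 16.8 times with MSI micronuclei, 15.4 times with CIN free DNA and 6.83 times with CIN micronuclei. Ggct varied least, at 4.26 to 4.96 times, Pcdh7 ran from 2.28 to 2.87 times, and Hr ran from 3.27 times with CIN micronuclei to 5.34 times with MSI micronuclei. The highest ratio of all, 41.9 times for Gm10392 with MSI free DNA, rested on 4 counts in the 2 MSI libraries. Of the ways in which these ratios could differ, the interactions of tumour type with source and with form were tested, as given above, and called none of the 7 genes; the interaction of all 3 factors was not tested.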

How the data were processed

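Poly-A selected RNA of 16 tumour libraries was sequenced. The authors deposited read counts for each gene, and the same genes as FPKM. Named in the submitters' processing notes are fastp, HISAT2 2.0.5, featureCounts 1.5.0-p3 and GRCm39. Coordinates in the deposited counts are nevertheless of GRCm38, the build used here, because they were identical for 53585 of 54495 genes present in GENCODE M21. Kits with and without strand information appear in the labels' protocols. Each deposited FPKM value is a count over the gene's length and a library-wide total of 0.899 to 1.08 times the summed counts. They served only to order levels between genes. Of the columns in each file, 4 matched no sample and were left out.

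Groups and replicate numbers come from the sample titles. Same-numbered libraries deviated together within MSI tumours (correlation 0.40 to 0.80 over 6 pairs of groups) but not within CIN tumours, and no label says what a number shares, so the fit reported has no block. The counts as deposited were analysed by edgeR 4.0.16 (R 4.3.3) using TMM scaling, filterByExpr by group (18777 of 54532 genes kept), a mean for each of the groups, the robust quasi-likelihood test, and p-values adjusted by Benjamini-Hochberg over all genes (threshold 0.05). The standard error of a log2 fold change was its size divided by the square root of the F statistic. Interactions are halved. CPM use TMM factors, and the floor for a count of 0 is 3 counts. The procedure was tested on simulated data. The 2 libraries of each group differed by more than counting noise (chi-square per degree of freedom 19.4 to 214) and were treated as separate samples. The common biological coefficient of variation was 0.43.

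The 7 genes, the related gene lists and the marker lists were chosen with earlier results of these data known. By rule, the text names the 7 genes, the called genes of each related list and the closest relatives of each of the 7, the nearest tested gene on each side and the called genes starting within 500 kb, and for each the 2 protein-coding genes most alike in pattern. The relatives of Gm9732, the overlapping genes and the marker genes with values were named after their values were seen. Of the related lists, 2 genes are not reported here and were left out of the counts and medians. Similar transcripts were found with blastn 2.17.0 among GENCODE M21 transcripts. Alternatives were DESeq2 1.42.0, other size factors, no filter, replicate blocks, an additive model, marker scores as covariates, and leaving out libraries.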

Additional observations from a re-analysis of the deposited data

How the results depend on the processing

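The 7 genes were picked on the tumour contrast in these same libraries, so the values below describe the settings and do not test that contrast. The tumour difference of the 7 genes kept its direction in all 175 values recomputed (25 settings for each gene) and fell short of the threshold in 2 of them. These were Dach2 (log2 fold change -3.19) and Gm9732 (-3.45) in the additive model without the 5 libraries rich in muscle transcripts. The log2 fold change ranged from -2.17 to -1.90 for Hr, -4.60 to -3.42 for Esx1, -1.37 to -1.18 for Pcdh7, -2.28 to -1.99 for Ggct, -4.93 to -3.08 for Dach2, -4.82 to -3.42 for Gm10392 and -4.93 to -3.16 for Gm9732.

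How many genes in all differed between the tumour types depended on the fit. Against 1089 genes in the fit reported, DESeq2 called 2295, the additive model 1950, the replicate block 1778 and a replicate block within each tumour type 3428. The additive model called 134 without the 5 libraries rich in muscle transcripts and 1826 without the 4 MSI tumour libraries labelled 2, the second chosen after seeing the data. Leaving out 1 library gave 477 genes (without CIN tumour MSI free 2) to 1758 (without MSI tumour CIN micronuclei 1). Counts of 485 to 723, also more than 1.5 times below the reported one, came without MSI tumour MSI micronuclei 1 or 2, MSI free 2 or CIN free 2, or without CIN tumour CIN micronuclei 1 or 2, CIN free 1 or 2 or MSI micronuclei 2. The cause was not tested.

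None of the 7 genes passed the threshold for the source or form of the DNA or for an interaction under any alternative, including a model with interactions without the 5 libraries rich in muscle transcripts, chosen after seeing the data. Over all genes 1 was called for the source in MSI tumours with marker scores as covariates, 1 for the source in CIN tumours with DESeq2, 2 for the interaction of tumour and source with DESeq2, and 0 under the other settings.

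Same-numbered libraries did not deviate together throughout: the correlation of replicate differences was 0.40 to 0.80 between groups of MSI tumours, -0.33 to 0.38 between groups of CIN tumours and -0.54 to 0.80 over all 28 pairs of groups. The numbers thus pair the libraries within MSI tumours, by the data and not the labels, and not within CIN tumours or across the tumour types. The replicate block changed no call of the source or form of the DNA, where 0 genes were called with it. Depth limits Esx1, Dach2, Gm10392 and Gm9732 most, with 51 to 119 counts over the 8 MSI tumour libraries.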
